A study of Mus musculus with 12 samples.

Results

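MHC class I antigen presentation was followed here through 10 genes in xenografts of SVR, a mouse endothelial line that grows as angiosarcoma. The genes were taken by their names in the deposited gene table, 10 of the 54232 genes it lists. They are the heavy chains H2-K1 and H2-D1, the light chain B2m, the peptide transporter subunits Tap1 and Tap2, the loading factor tapasin (Tapbp), the immunoproteasome subunits Psmb8 and Psmb9, and the transcriptional regulators Nlrc5 and Irf1. SVR tumors, labelled as strain C57BL/6, were grown under the skin of athymic nude mice aged 8 to 12 weeks and were treated daily by gavage, per the labels until they ulcerated or passed 1 cm. The labels do not say which of the study's treatment experiments the tumors belong to, and time on treatment may differ between tumors. There were 3 tumors in each of 4 groups: vehicle (control), trametinib at 1 mg/kg, cediranib at 3 mg/kg, and combined trametinib and cediranib at these doses. Trametinib inhibits MEK, the kinase above ERK, and cediranib inhibits the VEGF receptors. All 12 tumors therefore share 1 cell line and a host without a thymus, which lacks mature T cells but keeps macrophages, NK cells and skin. RNA came from lysed whole tumors, and exome probes selected the sequenced fragments. Tumor and host are both mouse, so the RNA of the SVR cells and of the host cannot be told apart, and neither can fewer cells of a type and less RNA per cell. Nothing in the labels says how the 3 tumors of a group were related, so the tests measure the spread between these tumors.

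MHC class I molecules carry peptides from inside the cell to its surface, where cytotoxic T cells read them and NK cells sense their absence. Proteins are cut by the proteasome, whose catalytic subunits are exchanged for Psmb8, Psmb9 and Psmb10 under interferon, and the peptides are pumped into the endoplasmic reticulum by the Tap1 and Tap2 pair. There tapasin bridges the transporter to a heavy chain bound to B2m until a fitting peptide is loaded. The genes are known to be switched on together, by NF-kappaB and interferon regulatory factors at the promoters and by the transactivator Nlrc5. In endothelium, class I is present at rest and is raised by interferons.

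7 of the 10 genes lie on chromosome 17, where the mouse MHC is. In the coordinates of the deposited table (GRCm38) H2-K1 spans chr17:33996017-34000289, H2-D1 chr17:35262730-35267499 and Tapbp chr17:33915899-33929288. Psmb9 (chr17:34181988-34187764), Tap1 (chr17:34187553-34197225), Psmb8 (chr17:34197721-34201454) and Tap2 (chr17:34203527-34216321) follow each other in 1 block. B2m (chr2:122147686-122153083), Nlrc5 (chr8:94434356-94527272) and Irf1 (chr11:53770014-53778374) lie elsewhere.

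The stretches of DNA before the start sites are shown for the 5 genes with a match to 1 of the motifs searched. They come from RefSeq (GRCm38.p6), whose promoter table matched 8 of the 10 genes. Tap2 and Nlrc5 were not among them. Each line gives the 250 bases before a start site, 5′ to 3′, and positions are counted backward from the start site, so that the last base shown is at -1. The capitals mark GGGGATTCC (a kappa B site) in H2-K1 and H2-D1, and AANNGAAA (an interferon regulatory factor core) or its reverse complement in H2-K1, H2-D1 and B2m. In Psmb8 and Irf1 they mark TTCNNNGAA, the gamma-interferon activated site.
H2-K1, chr17:34000334-34000583, minus strand: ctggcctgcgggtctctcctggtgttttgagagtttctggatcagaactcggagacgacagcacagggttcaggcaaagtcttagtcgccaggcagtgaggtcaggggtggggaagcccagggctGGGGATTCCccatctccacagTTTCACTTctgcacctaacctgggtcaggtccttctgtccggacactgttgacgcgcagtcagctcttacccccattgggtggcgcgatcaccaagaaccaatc
H2-D1, chr17:35262844-35263093, plus strand: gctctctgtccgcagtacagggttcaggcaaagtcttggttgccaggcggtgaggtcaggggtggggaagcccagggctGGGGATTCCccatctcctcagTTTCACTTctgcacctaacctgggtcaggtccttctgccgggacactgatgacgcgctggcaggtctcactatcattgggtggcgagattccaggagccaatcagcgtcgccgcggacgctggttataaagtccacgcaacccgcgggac
B2m, chr2:122147437-122147686, plus strand: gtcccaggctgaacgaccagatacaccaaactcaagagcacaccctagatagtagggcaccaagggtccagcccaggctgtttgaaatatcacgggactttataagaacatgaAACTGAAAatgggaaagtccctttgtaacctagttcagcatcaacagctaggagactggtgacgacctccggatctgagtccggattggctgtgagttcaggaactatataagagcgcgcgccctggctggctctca
Psmb8, chr17:34197945-34198194, plus strand: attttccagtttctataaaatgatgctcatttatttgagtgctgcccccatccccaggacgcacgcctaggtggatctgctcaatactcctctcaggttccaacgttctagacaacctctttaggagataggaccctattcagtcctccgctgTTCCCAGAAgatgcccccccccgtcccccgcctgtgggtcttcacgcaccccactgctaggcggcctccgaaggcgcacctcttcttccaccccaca
Irf1, chr11:53769764-53770013, plus strand: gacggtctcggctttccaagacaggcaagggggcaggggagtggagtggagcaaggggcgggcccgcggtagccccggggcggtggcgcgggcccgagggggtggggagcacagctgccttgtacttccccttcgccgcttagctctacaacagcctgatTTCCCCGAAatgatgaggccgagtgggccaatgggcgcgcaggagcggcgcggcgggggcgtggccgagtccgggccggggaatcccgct

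The promoters of H2-K1 and H2-D1 are near copies of each other. Lined up on the kappa B match without gaps, 169 of 204 bases were identical (82.8%), and in both genes 12 bases separated the kappa B match from the interferon regulatory factor core. The kappa B match began at position -125 in H2-K1 and -171 in H2-D1, and the core at -104 and -150. Motifs were searched on both strands from 250 bases before to 50 bases after the start site, and no match overlapped another. GGGGATTCC was found in 0.25% of the 32851 RefSeq promoters of this length and in 2 of the 8 class I genes. These letters were chosen as the kappa B site of class I promoters, so finding them in H2-K1 and H2-D1 does not measure enrichment. For each motif the percentage counts promoters, while the number of class I genes counts a match at any listed start site. AANNGAAA was found in 23.9% of promoters and in 3 of the 8 genes (H2-K1, H2-D1 and B2m, there at -137). TTCNNNGAA was found in 8.3% of promoters and in 2 of the 8 genes, at -97 in Psmb8 and at -90 in Irf1. RefSeq lists another start site for H2-K1 with the same matches and another for Irf1 without one. The windows of Psmb9 and Tap1, which are transcribed away from each other, share 275 bases and held none of the 3 motifs, as did that of Tapbp. These matches describe letters in the windows and were not tested as sites.

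The 12 libraries held between 9478865 and 11666094 counts. Counts were scaled to normalized CPM, which sets each library to the same total, with TMM factors of 0.908 to 1.10, and 3 counts, the limit that a count of 0 allows, were worth 0.251 to 0.348 CPM in a library. This limit covers counting error only. A filter on low counts left 12897 genes for the test, edgeR's quasi-likelihood test with all 12 libraries in 1 fit, and a gene passed at a Benjamini-Hochberg adjusted p (FDR) under 0.05 over all of them. The treatment labels were checked on genes that ERK drives. Of the 10 genes of that list 8 fell with trametinib and 9 with the combination, where 3.47% and 5.13% of all genes tested fell. Endothelial markers, those of the SVR lineage, were present, 8 of 10 passing the count filter, with summed levels of 193 to 424 CPM in control, 47.3 to 108 in trametinib, 112 to 318 in cediranib and 32.2 to 77.3 in combination treated tumors. Epidermal genes summed to between 1.84 and 8.16 CPM in trametinib treated tumors and to between 3033 and 4551 in combination treated tumors, with control (22.2 to 637) and cediranib treated tumors (42.3 to 2914) between them.

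The heavy chains made up nearly all class I counts. Per kilobase of gene model, a scale that sets genes of different length side by side, H2-D1 averaged 711 CPM and H2-K1 269 CPM, followed by Irf1 (6.87), Psmb8 (3.43), B2m (2.71), Tapbp (1.57), Tap2 (1.08), Tap1 (0.52), Psmb9 (0.361) and Nlrc5 (0.0743). H2-D1 took 70.9% and H2-K1 27.1% of the CPM of the 10 genes. By total count H2-D1 ranked number 48 and H2-K1 number 194 among the genes of the table. B2m, whose protein pairs with every heavy chain, had only 289 counts over the 12 libraries against 230552 for H2-D1, with 11 to 42 counts in a library. The capture kit's probes were designed on human exons, so levels of different mouse genes depend on the capture as well as on the transcripts, and its part in these levels was not tested. Comparisons of 1 gene between tumors share its probes.

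For the heavy chain H2-K1, control tumors held 579, 550 and 405 CPM, trametinib treated tumors 688, 1033 and 721, cediranib treated tumors 614, 1027 and 311, and combination treated tumors 988, 1055 and 436. The 3 trametinib treated tumors all lay above the 3 control tumors, while the cediranib and combination groups each held 1 tumor, replicate 3, within or below the control range. H2-K1 was 1.59-fold higher with trametinib than in control (log2 fold change 0.67, standard error 0.40, FDR 0.374 by edgeR) and 1.62-fold higher with the combination (0.69, standard error 0.40, FDR 0.286 by edgeR), and neither difference passed the test. For H2-D1, the more abundant heavy chain, the values were 1525, 1603 and 1463 CPM in control, 1653, 2267 and 1943 in trametinib, 1588, 2584 and 1005 in cediranib and 2326, 2632 and 1419 in combination treated tumors. Again the trametinib treated tumors did not overlap with control, and replicate 3 of the cediranib and combination groups was below every control tumor. The control tumors differed little among themselves, with a coefficient of variation of 4.58%, against 46.3% in the cediranib group. The log2 fold changes of H2-D1 against control were 0.35 (standard error 0.30) with trametinib and 0.47 (0.30) with the combination, with FDRs of 0.568 and 0.331 by edgeR.

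The 2 heavy chains share stretches with each other and with other class I genes. Of the 50-base windows of H2-K1 transcripts 9.63% occur in another gene too, and 4.08% of all H2-K1 windows occur in H2-D1. Of the windows of H2-D1 12.8% occur in another gene. The sources used here do not give how reads that match several genes were counted, and the split between these genes is uncertain. Class I heavy chains differ between mouse strains, the reads were aligned to the C57BL/6 reference, and the MHC haplotype of the nude host is not stated, so how fully host heavy chain reads were counted was not tested. B2m shared 0% of its windows.

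B2m, the light chain without which heavy chains do not fold stably, was measured at 2.38, 1.52 and 1.61 CPM in control, 3.35, 4.88 and 1.76 in trametinib, 2.09, 3.68 and 1.05 in cediranib and 2.22, 2.26 and 1.11 in combination treated tumors. All 4 groups overlapped. B2m had a log2 difference of 0.83 (standard error 0.49) with trametinib and 0.01 (0.50) with the combination, and that of the combination against trametinib was -0.82 (0.49), with FDRs of 0.373, 0.989 and 0.412 by edgeR.

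**Figure D1:**
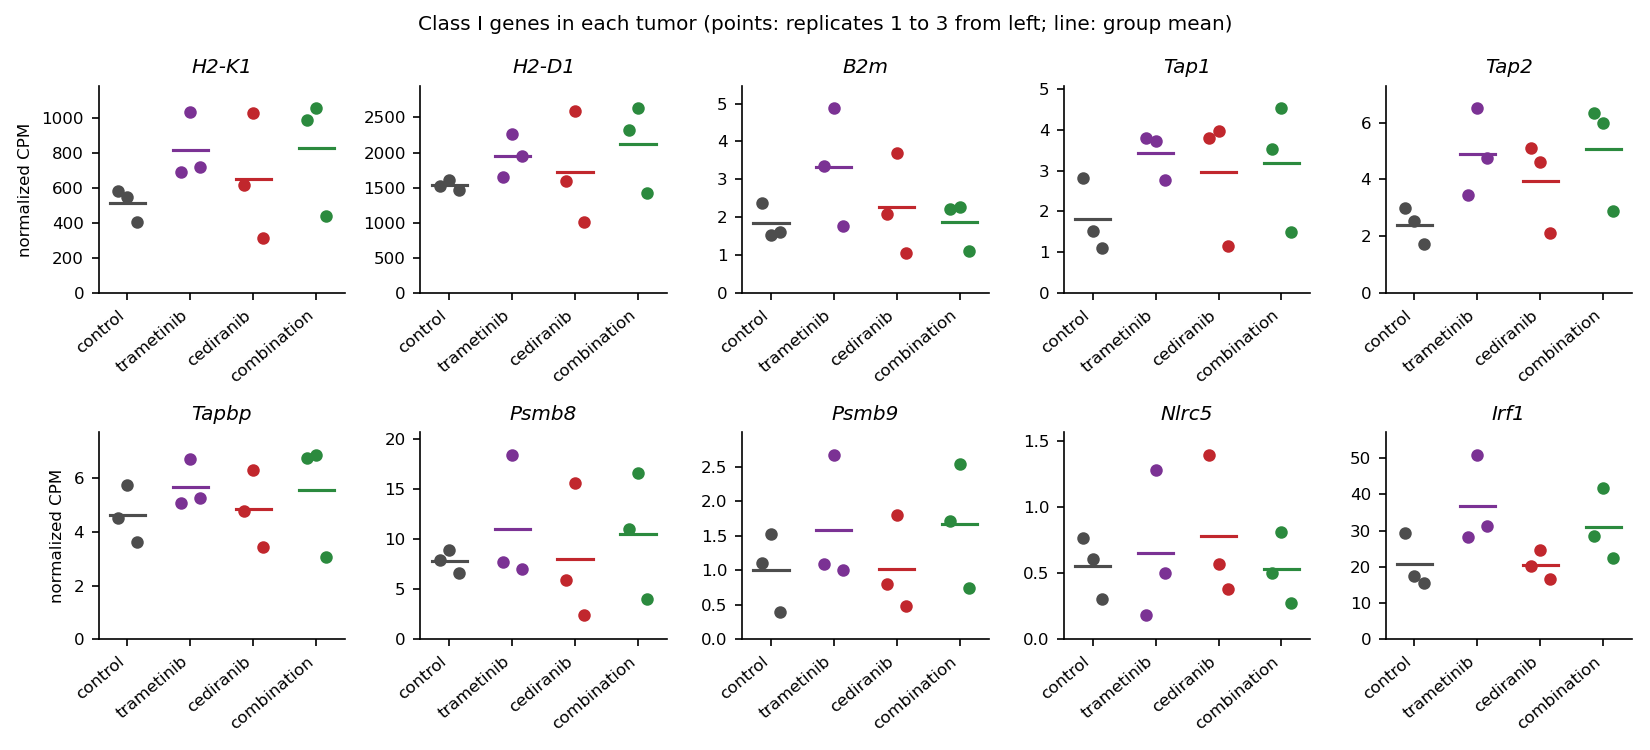
Normalized CPM (vertical axes, each from 0 and scaled to its gene) of the 10 class I genes in the 4 treatment groups, 3 tumors each. Points are tumors, replicates 1 to 3 from left to right, and lines are group means. The mean of H2-K1 was 511 CPM in control and 826 CPM in combination treated tumors, and replicate 3 was the lowest of its group for all 10 genes with cediranib and with the combination.

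Among the transport and loading genes, Tap2 stood highest against control. This gene, for 1 chain of the transporter, held 2.98, 2.53 and 1.71 CPM in control, 3.44, 6.51 and 4.77 in trametinib, 5.09, 4.63 and 2.10 in cediranib and 6.35, 5.98 and 2.87 in combination treated tumors. Every trametinib treated tumor was above every control tumor, and in the other groups replicate 3 fell back into the control range. Tap2 was 2.02-fold higher with trametinib (log2 fold change 1.01, standard error 0.41, 95% interval 0.07 to 1.96, unadjusted p = 0.0294 and FDR 0.183 by edgeR). With the combination it was 2.09-fold higher (1.06, standard error 0.41, interval 0.12 to 2.01, unadjusted p = 0.023 and FDR 0.118 by edgeR). Neither passed after adjustment over all genes. Its partner Tap1 held 2.81, 1.52 and 1.11 CPM in control, 3.81, 3.72 and 2.76 in trametinib, 3.79, 3.97 and 1.15 in cediranib and 3.53, 4.53 and 1.48 in combination treated tumors. Control replicate 1 reached into the treated range. Its log2 fold changes were 0.90 (standard error 0.52), 0.70 (0.52) and 0.80 (0.52) for trametinib, cediranib and the combination against control.

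Tapasin, which holds the heavy chain at the transporter, had the smallest log2 fold change of the 9 genes with trametinib. Tapbp was at 4.51, 5.77 and 3.63 CPM in control, 5.08, 6.74 and 5.27 in trametinib, 4.79, 6.33 and 3.44 in cediranib and 6.75, 6.88 and 3.06 in combination treated tumors. All groups overlapped, and the log2 fold changes against control were 0.29 (standard error 0.33), 0.07 (0.33) and 0.26 (0.33). Parts of these genes are shared with neighbours that also hold counts, among them Zbtb22 with 1898 counts and Gm19412 with 117 beside the 650 of Tapbp, and Gm20496 with 844 beside the 510 of Tap2 and the 1164 of Psmb8. Of the 50-base windows of Tapbp 23.2% occur in another gene, as do 11.6% of those of Tap2 and 11.9% of those of Psmb8, and the sources used here do not give whether counting used the strand.

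The immunoproteasome subunits spread widely between tumors of the same group. Psmb8 held 7.91, 8.90 and 6.66 CPM in control, 7.70, 18.5 and 7.02 in trametinib, 5.98, 15.7 and 2.48 in cediranib and 11, 16.7 and 4.08 in combination treated tumors. In each treated group replicate 2 was the highest, and the other trametinib treated tumors were within the control range. The log2 fold change with trametinib was 0.49 (standard error 0.62), and without trametinib replicate 2 it was -0.09. With the combination it was 0.44 (0.62), and -0.06 without combination replicate 2. Psmb9 lay between 0.403 and 1.52 CPM in control, 1.00 and 2.67 in trametinib, 0.478 and 1.79 in cediranib, and 0.741 and 2.54 in combination treated tumors, with as few as 4 counts in a library. Its log2 fold changes against control were 0.62 (standard error 0.65), 0.02 (0.67) and 0.71 (0.65). Psmb9 overlaps the start of Tap1.

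Of the regulators, Irf1, a transcription factor that interferon-gamma induces and that acts on class I promoters, was at 29.4, 17.5 and 15.5 CPM in control, 28.2, 51.0 and 31.3 in trametinib, 20.3, 24.7 and 16.8 in cediranib and 28.6, 41.8 and 22.5 in combination treated tumors. Only control replicate 1 overlapped with the trametinib treated tumors. Irf1 was 1.76-fold higher with trametinib (log2 fold change 0.82, standard error 0.31, interval 0.11 to 1.53, unadjusted p = 0.0211 and FDR 0.154 by edgeR). The combination gave 0.57 (0.31) and cediranib -0.02 (0.31), with FDRs of 0.258 and 0.999 by edgeR. The overlapping gene Gm17334 held 2403 counts beside the 3428 of Irf1. Nlrc5, the class I transactivator, had 2 to 14 counts in a library, 78 in all, and was the only one of the 10 genes to miss the count filter. Its levels ran from 0.303 to 0.765 CPM in control, 0.181 to 1.28 in trametinib, 0.382 to 1.40 in cediranib and 0.278 to 0.815 in combination treated tumors. A difference in Nlrc5 was not detectable at this depth.

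Against control, none of the 9 tested class I genes passed in any drug comparison. With trametinib all 9 had a higher fitted level, by 0.29 to 1.01 on the log2 scale with a median of 0.67, where the median over all genes tested was 0.01 and 50.6% of genes were higher. Over all genes 6.12% passed an FDR of 0.05 in this comparison, 20.7% had an unadjusted p under 0.05 and 25.8% had groups that did not overlap. For the class I genes these numbers were 0, 2 (Tap2 and Irf1) and 3 of 9 (H2-K1, H2-D1 and Tap2). With the combination all 9 were again higher, by 0.01 to 1.06 with a median of 0.57, where 50.1% of all genes were higher. Without combination replicate 2 the median was 0.29 and 2 genes were lower, B2m (-0.15) and Psmb8 (-0.058). B2m was also lower without control replicate 2 or 3 or combination replicate 1. Over all genes 9.98% passed, 27.2% had an unadjusted p under 0.05 and 31.3% did not overlap, and for the class I genes these numbers were 0, 1 (Tap2) and 0 of 9. Both comparisons use the same 3 control tumors, so the 2 counts are not independent of each other. The 9 genes also rose and fell together from tumor to tumor, so they are not 9 separate observations. Under the stricter rule of the study, which adds a log2 fold change of at least 1.5, 0 class I genes were called.

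Cediranib alone gave 8 genes higher and 1 lower than control, with a median log2 fold change of 0.17. The FDR by edgeR was 0.999 for each of them and 0% of all genes passed, with 4.32% of genes and 0 class I genes at an unadjusted p under 0.05. Groups did not overlap for 7.76% of genes and 0 class I genes. The median rested on 1 tumor: without cediranib replicate 2 it was -0.17.

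**Figure D2:**
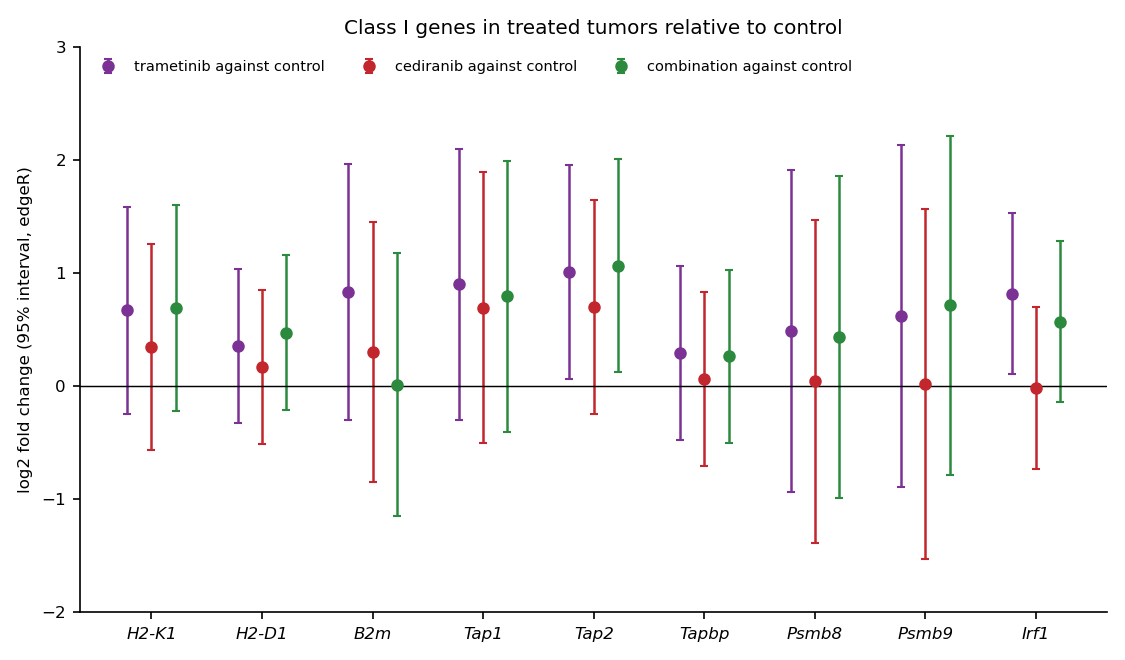
Log2 fold change against control (vertical axis) of the 9 class I genes tested, from edgeR with 95% intervals, for trametinib, cediranib and the combination. The intervals exclude 0 before adjustment for Tap2 with trametinib (0.07 to 1.96) and the combination (0.12 to 2.01) and for Irf1 with trametinib (0.11 to 1.53).

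Adding cediranib to trametinib left 4 genes higher and 5 lower, with a median log2 fold change of -0.03 and B2m (-0.82) farthest from 0. The sign of the median was not stable: it was -0.34 without combination replicate 2, 0.33 without combination replicate 3 and 0.64 with the macrophage score in the model. In this comparison 0.969% of all genes passed, 17.9% had an unadjusted p under 0.05 and 24.2% did not overlap, and the numbers of class I genes were 0, 0 and 0. The 95% intervals were wide, from -0.89 to 0.93 for H2-K1 and from -0.56 to 0.80 for H2-D1, so differences within these bounds were not detectable. Adding trametinib to cediranib left 8 genes higher and 1 lower with a median of 0.34, the change of Irf1 being 0.59 (standard error 0.31, FDR 0.284 by edgeR). That median depended on single tumors, being 0.02 without cediranib replicate 3 and 0.71 without cediranib replicate 2. Here 7.68% of all genes passed, 23.1% had an unadjusted p under 0.05 and 28.4% did not overlap, against 0 class I genes in each case. The interaction, which asks whether cediranib acts differently with and without trametinib, was under 0 for 8 of 9 genes with a median of -0.23. The sign of this median was not stable: it was 0.32 with the epidermal score in the model, 0.046 with the macrophage score, 0.14 without cediranib replicate 2, 0.036 without trametinib replicate 2 and -0.52 without combination replicate 2. The interaction passed for 0% of all genes and 0 class I genes, and had an unadjusted p under 0.05 for 7.05% of all genes and 0 class I genes.

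By group mean, control was lowest for 8 of the 10 genes, trametinib highest for 5, the combination for 4 and cediranib for 1. In each of the 30 steps between neighbouring groups in these orders the ranges of the tumors overlapped.

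The class I genes separated single tumors more than treatments. Cediranib replicate 3 and combination replicate 3 were the lowest of their groups for all 10 genes, and control replicate 3 for 9 of 10. Trametinib replicate 2 and combination replicate 2 were the highest of their groups for 9 genes each, cediranib replicate 2 for 8 and control replicate 1 for 6. The sum of H2-K1 and H2-D1 ran from 1868 to 2153 CPM in control, from 2342 to 3300 in trametinib, from 1316 to 3611 in cediranib and from 1856 to 3686 in combination treated tumors, so both the lowest and nearly the highest tumor carried the cediranib label. Differences between the group means made up a median of 24.4% of the variance in log2 CPM of the 9 tested genes. This share ran from 10.1% for Tapbp to 51.3% for Irf1, against a median of 42.2% over all genes tested. With 3 tumors in a group the share is above 0 even where treatment has no effect, so it does not by itself measure a treatment effect. The standard deviation within groups had a median of 0.60 on the log2 scale for the class I genes and 0.30 for all genes.

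**Figure D3:**
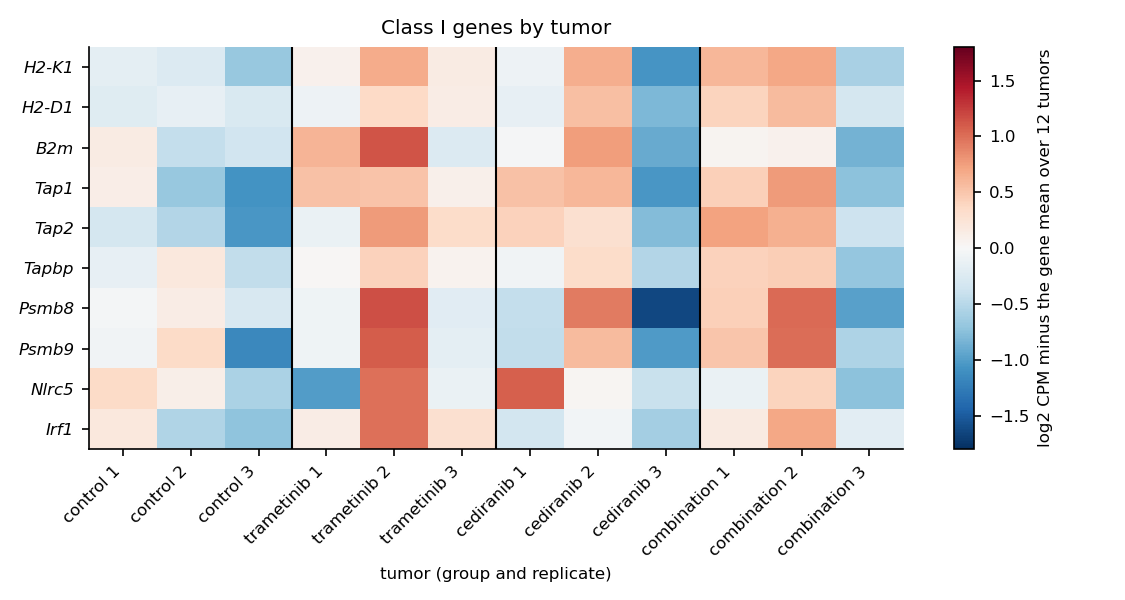
Log2 CPM of the 10 class I genes (rows) in the 12 tumors (columns, by group and replicate), each as the difference from the mean of its gene, with red above and blue below that mean. Columns are alike from top to bottom: trametinib replicate 2 was the highest of its group for 9 genes, and cediranib replicate 3 the lowest of its group for all 10.

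All 36 pairs of tested class I genes were positively correlated over the 12 tumors, with Pearson's r between 0.62 and 0.97 and a median of 0.79. With the group means removed all 36 remained positive, with a median of 0.82. The points share libraries, and neighbouring genes of the block on chromosome 17 can share reads. For the mean standardized level of the 9 genes, the genes most alike over 12 tumors were Gm20496 (r = 0.96, chr17:34199316-34205449, overlapping Psmb8 and Tap2) and Gm11131 (0.92, chr17:35377021-35380292, overlapping H2-Q4). After these came Cmpk2 (0.90, chr12:26469204-26479837), which interferons induce, Gm17334 (0.90, chr11:53772281-53773187, overlapping Irf1) and H2-Q4 (0.90, chr17:35379617-35384674), a non-classical class I gene.

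Interferon-stimulated genes followed the same tumors. Of the 30 genes of this list 14 were tested, and their mean log2 CPM correlated with the class I level over the 12 tumors with r = 0.86 (Spearman's rho 0.93) and, with group means removed, 0.90. The same tumor was highest for both in 4 of 4 groups and lowest for both in 3 of 4. Against control, all 14 were higher with the combination, with a median log2 fold change of 1.23, and 1 passed, the antiviral gene Ifit1 (2.13, standard error 0.46, FDR 0.0155 by edgeR). Passing genes made up 9.98% of all genes tested in this comparison, so 1 of 14 is not above that share. Ifit1 averaged 6.22 CPM (SD 2.33, n = 3) in control and 27.4 (SD 16, n = 3) in combination treated tumors. With trametinib 13 of 14 were higher with a median of 0.66, and 0 passed. In the combination against cediranib Ifit1 also passed (1.68, standard error 0.45, FDR 0.0447 by edgeR), beside 7.68% of all genes tested. Of 18 genes of interferon signalling 11 were tested and 0 passed in any comparison. Among them Socs3, a feedback inhibitor, had the smallest p with the combination (0.51, standard error 0.17, FDR 0.0747 by edgeR). The interferon genes Ifng and Ifnb1 had 0 counts in all 12 libraries, which allows up to 0.251 to 0.348 CPM in each.

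**Figure D4:**
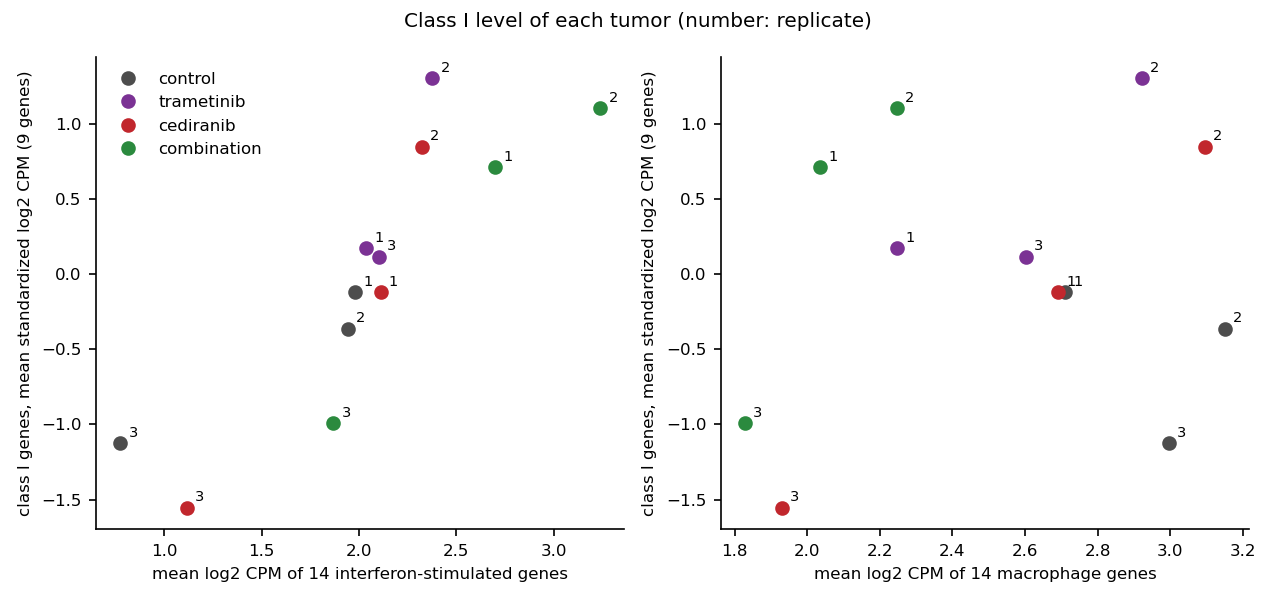
Mean standardized log2 CPM of the 9 class I genes in each of 12 tumors (vertical axis) against the mean log2 CPM of 14 interferon-stimulated genes (left) and of 14 macrophage genes (right), with colors for the groups and numbers for the replicates. The correlation over 12 tumors is 0.86 on the left and 0.24 on the right, and 0.90 and 0.78 with group means removed.

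Macrophage genes went with the class I level inside groups, while their sums were lower in combination treated tumors than in control tumors. Summed over 14 markers, all of them tested and none at 0, they lay at 428 to 723 CPM in control, 329 to 459 in trametinib, 311 to 481 in cediranib and 201 to 347 in combination treated tumors. With the combination 13 of 14 were lower than in control and 4 fell, Cd68 (-1.59, FDR 0.0127 by edgeR), Mrc1 (-1.06, FDR 0.0234), Csf1r, the CSF1 receptor (-1.28, FDR 0.0311), and Fcgr1 (-2.81, FDR 0.0427). Of all genes tested 5.13% fell in this comparison. The correlation with the class I level was 0.24 over all 12 tumors and 0.78 with group means removed. When the macrophage score was a term of the model, 2 class I genes passed with trametinib, H2-K1 (1.08, FDR 0.0462 by edgeR) and H2-D1 (0.70, FDR 0.0384). With the combination the same genes passed, H2-K1 (1.76, FDR 0.0455 by edgeR) and H2-D1 (1.37, FDR 0.023), and against cediranib H2-D1 did (0.92, FDR 0.0298). Over all genes 731, 153 and 427 passed in these 3 comparisons of that fit, beside 789, 1287 and 991 without the score. The macrophage score itself ran from 2.71 to 3.15 in control and from 1.83 to 2.25 in combination treated tumors. These ranges do not overlap, so the adjusted changes of the combination against control extrapolate between tumors of unlike score. Without the filter on low counts H2-K1 and Irf1 passed with trametinib and H2-K1, H2-D1 and Tap2 with the combination. Calls over all genes also rose in that setting, to 1690 with trametinib, 2390 with the combination and 489 with cediranib, for which the filtered fit gave 0. In every other setting run 0 class I genes passed. The epidermal score, in contrast, had r = -0.19 with the class I level and -0.30 with group means removed. For the endothelial score these values were -0.34 and 0.11. T cell markers summed to 2.69 to 8.06 CPM, NK cell markers to 0.302 to 4.34 and B cell markers to at most 0.605 over the 12 libraries, with 2 of 8 T cell and 2 of 8 NK cell markers at 0 in all.

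The remaining class I pathway was measured through lists of its known parts. The third immunosubunit Psmb10 and the proteasome activator genes Psme1 and Psme2 were all tested and 0 passed in any comparison. With the combination, Psmb10 stood at 0.88 (standard error 0.45) and Psme2 at 0.53 (0.24) on the log2 scale, with FDRs of 0.227 and 0.175 by edgeR. Of the constitutive catalytic subunits, which Psmb8, Psmb9 and Psmb10 replace, Psmb7 fell with the combination from 352 CPM (SD 25.9, n = 3) to 254 (SD 38.0, n = 3), by 0.47 on the log2 scale (FDR 0.0351 by edgeR). Psmb5 and Psmb6 did not pass (0.29 and 0.19), in a comparison where 9.98% of all genes tested passed. None of the other 11 subunits of the 20S core passed, with a median of -0.21 with the combination. Nor did any of the 12 genes of peptide loading and trimming, with medians of 0.06 with trametinib and -0.31 with the combination, where the oxidoreductase Pdia3 had the smallest p (-0.44, FDR 0.0706 by edgeR).

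Of 20 non-classical class I and class I-like genes 16 were tested. With the combination 13 were higher and 3 lower than in control, with a median of 0.75. 1 rose, H2-M2 (3.30, standard error 0.87, FDR 0.0356 by edgeR), and 1 fell, Procr, the endothelial protein C receptor, which has a class I-like fold (-3.17, standard error 0.65, FDR 0.0124). These calls were made in a comparison where 9.98% of all genes tested passed, so their number is near the share over all genes. H2-M2 averaged 0.86 CPM (SD 0.911, n = 3) in control and 8.80 (SD 4.49, n = 3) in combination treated tumors. Its rise stood beside the higher sums of epidermal markers in that group, 3033 to 4551 CPM against 22.2 to 637 in control, whose part in it was not tested. Procr averaged 2.36 CPM (SD 1.18) and 0.249 (SD 0.185), and its change stood beside lower sums of endothelial markers in the combination group, whose part in it was not tested. Procr also fell in the combination against cediranib (-3.17, FDR 0.0142 by edgeR), where 7.68% of all genes tested passed. With trametinib 12 were higher and 4 lower with a median of 0.27 and 0 passed, with Procr at -2.04 (FDR 0.0619 by edgeR) and H2-Q4 at 0.84 (FDR 0.27). 1 gene of the list, H2-Ke6, carries the MHC prefix for its place and encodes a steroid dehydrogenase.

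Of 12 class II genes 6 were tested. Their medians were -0.57 with trametinib and -0.10 with the combination, and 0 passed in any comparison. Genes of the complex that Nlrc5 and the class II transactivator assemble on (8 of 8 tested) also gave 0 in any comparison, with Atf1 (-0.72) at an FDR of 0.154 by edgeR with the combination. Among 8 NF-kappaB genes, all tested, 1 rose with the combination, Rel (1.18, standard error 0.27, FDR 0.0206 by edgeR), from 1.41 CPM (SD 0.348, n = 3) to 3.23 (SD 0.272, n = 3). In that comparison 9.98% of all genes tested passed, so 1 gene of 8 is near the share over all genes. Of 9 genes for ligands of NK cell receptors only Ulbp1 was tested, at -0.41 with the combination (FDR 0.502 by edgeR).

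**Figure D5:**
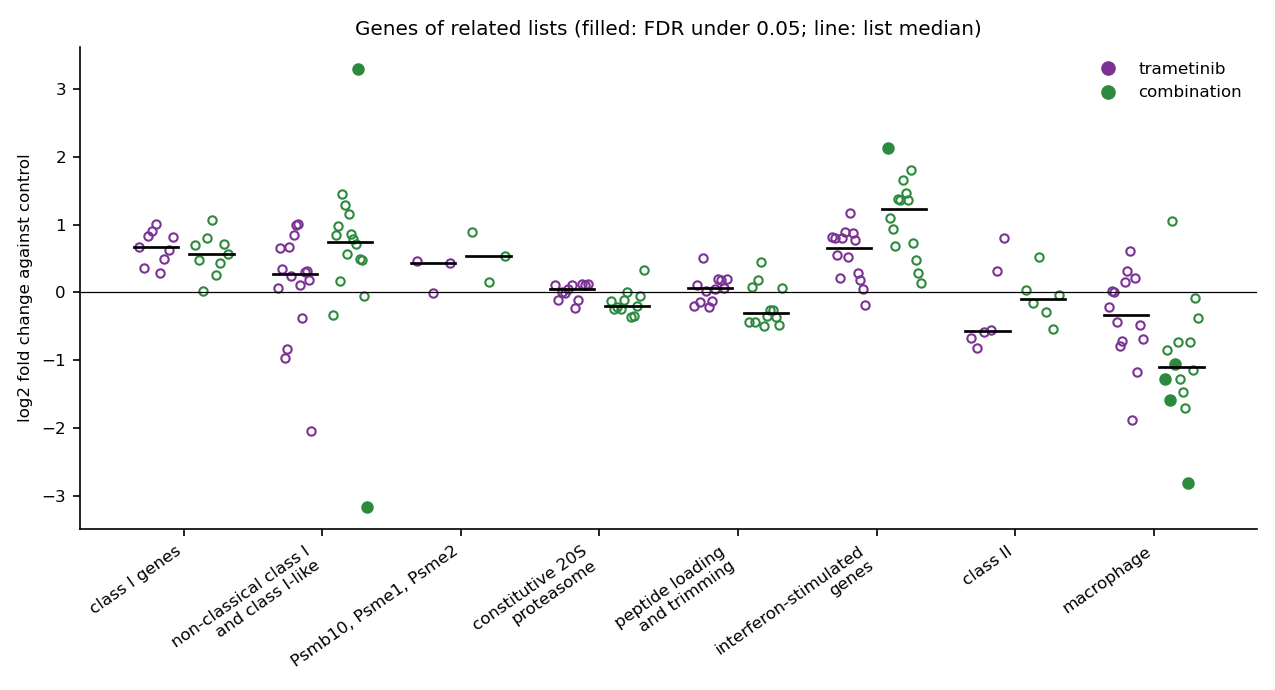
Log2 fold change against control (vertical axis) of the tested genes of 8 lists for trametinib and the combination. Points are genes, filled where the FDR by edgeR was under 0.05, and lines are list medians. The class I medians were 0.67 and 0.57, those of the interferon-stimulated genes 0.66 and 1.23, and those of the macrophage genes -0.33 and -1.10.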

How the data were processed

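RNA sequencing of 12 SVR xenografts was used, with groups taken from the sample titles and treatment labels. The authors prepared exome-capture libraries, sequenced them in paired reads of 50 bases, aligned them to GRCm38 with STAR 2.7.1a with gene counts from featureCounts 1.6.0 and base calls converted by bcl2fastq 1.8.4. The deposited table holds raw counts, without normalization, and a gene length in bases, which was used for levels per kilobase only. The sources used here do not give the annotation release, whether counting used the strand or how multi-mapped reads were treated. All columns were mapped to samples by name, and 0 were left over. No 2 libraries held the same counts.

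Counts were filtered with filterByExpr (minimum count 10, minimum total 15), scaled by TMM and tested by quasi-likelihood in edgeR 4.0.16 (R 4.3.3), with 1 fit over the 12 libraries, with Benjamini-Hochberg adjustment over the 12897 genes tested. The biological coefficient of variation was 27.2%. Log2 CPM used a prior count of 2. Standard errors were the absolute log2 fold change over the square root of F, and 95% intervals used the t distribution with 8 residual degrees of freedom, so they are approximate and slightly wider than the test. Tested on simulated counts for trametinib against control (12623 genes), changes of 1, 1.5, 2 and 3 on the log2 scale were recovered in 40%, 72%, 84% and 84% of genes. The changed genes were drawn at random from all tested genes, whose median standard deviation within groups was 0.30 on the log2 scale. That of the class I genes was 0.60, so these shares do not give the recovery for class I genes. The members and lists were chosen with earlier results of these data known. All 10 class I genes are named, and of other lists at most 4 genes per comparison, those with the smallest p, preferring those that passed. The genes most alike were the 5 with the highest Pearson's r. Cell type scores were mean log2 CPM of the tested markers. Alternatives were DESeq2 1.42.0 (Wald test), a likelihood ratio test, other scalings, no filter, fits of 2 groups, a replicate block, the scores as covariates and leaving out each tumor. Promoter and shared-window searches used RefSeq and GENCODE M21 sequences with Python 3.11.15.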

Additional observations from a re-analysis of the deposited data

How the results depend on the processing

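The count of class I genes passing an FDR of 0.05 stayed at 0 in 90 of 95 results, each a comparison under an alternative setting. Without the filter on low counts it was 2 with trametinib and 3 with the combination against control, beside 1690 and 2390 of all genes (789 and 1287 with the filter), and cediranib gave 489 of all genes beside 0. There H2-K1 had log2 fold changes of 0.65 (FDR 0.00129 by edgeR) and 0.70 (FDR 0.00028). In that setting Irf1 (0.80, trametinib), H2-D1 (0.48, combination) and Tap2 (1.07, combination) passed as well, and Nlrc5, tested only there, had 0.15, 0.45 and -0.07 for trametinib, cediranib and the combination. With the macrophage score as a covariate the count was 2, 2 and 1 for trametinib and the combination against control and the combination against cediranib, and the medians of the 9 genes were 1.13, 1.57 and 0.92, with 0.64 for the combination against trametinib, beside 731, 153 and 427 of all genes in the first 3. The epidermal score gave medians of 1.02 for the combination against control, 0.54 for it against trametinib, and 0.36 for both trametinib and cediranib against control, with H2-D1 at 0.038 and Tapbp at 0.091 for trametinib. The cediranib median was 0.48 with the macrophage score. The interaction median was 0.32 with the epidermal and 0.046 with the macrophage score. The cause of these shifts was not tested. Neither score overlapped between control and combination treated tumors, so the adjusted values of that comparison extrapolate. The epidermal score ran from -1.93 to -1.35 in trametinib and from 4.81 to 5.29 in combination treated tumors, so the same holds there. Irf1 with cediranib was 0.15 with the macrophage score, and Psmb8 with trametinib was -0.069 with the epidermal score. With the replicate number as a block, Psmb8 (-0.29) and Psmb9 (-0.017) with cediranib and B2m (-0.064) with the combination changed sign, and the cediranib median was 0.084. The labels do not say whether the numbers mark pairs. Of 18 same-numbered pairs of tumors 3 had a correlation of deviations over 0.1, in a range from -0.22 to 0.35. Of 36 pairs with different numbers 4 did, in a range from -0.44 to 0.35. With 3 tumors in a group these values cannot decide whether tumors were paired. The block left 0 class I genes passing and 719, 0 and 1171 of all genes for the 3 drugs against control, beside 789, 0 and 1287 without it, and 81 beside 125 for the combination against trametinib. DESeq2, the likelihood ratio test, other scalings and fits of 2 groups kept 0 passing.

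Leaving out 1 tumor at a time kept 0 passing. The medians of the 9 genes ran from 0.46 to 0.86 with trametinib, from -0.17 (without cediranib replicate 2) to 0.46 with cediranib and from 0.29 to 0.82 with the combination. Those of the combination against trametinib ran from -0.34 (without combination replicate 2) to 0.33 (without combination replicate 3), and against cediranib from 0.02 to 0.71. That of the interaction ran from -0.52 (without combination replicate 2) to 0.14 (without cediranib replicate 2) and was 0.036 without trametinib replicate 2. Single genes that changed sign with cediranib were H2-K1 (-0.15 to 0.67), H2-D1 (-0.24 to 0.44) and B2m (-0.23 to 0.63) without cediranib replicate 2. Tapbp (-0.17 to 0.25), Psmb8 (-0.89 to 0.46) and Psmb9 (-0.66 to 0.41) did so without that tumor or control replicate 3, and Irf1 (-0.19 to 0.31) without control replicate 1 or cediranib replicate 3. Psmb8 changed sign with trametinib (-0.087 to 0.72) and the combination (-0.058 to 0.82) without replicate 2 of the treated group. B2m with the combination (-0.15 to 0.27) changed sign without control replicate 2 or 3 or combination replicate 1 or 2. Genes with few counts, Nlrc5 (2 to 14 in a library) and Psmb9 (4 to 28), are limited by depth.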
